A study of Mus musculus with 6 samples.

Results

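The genes described here make the proteins that carry RNA polymerase II through a transcription unit and end the transcript. They were chosen by name alone: every probe of the array whose gene name belongs to the cleavage and polyadenylation factors, the Integrator subunits, the kinase, cyclins and inhibitor of pause release, the super elongation complex, the Spt proteins or the exonucleases Xrn1 and Xrn2. That rule matched 98 of 41174 probes and 45 of 27962 gene names, and the brightest probe stood for each gene. A gene was tested where some group had it well above background on both of its arrays, which held for 44 of the 45 members and for 17341 genes in all. Of these, 43 were above background on all 6 arrays, and Ell3 reached it on the treated arrays alone. Papolb, a poly(A) polymerase known from testis, was above background on no array and was not tested. Several genes carry older names on the array: Cpsf3l is Ints11, Supt16h is Supt16, Supt3h is Supt3, and Supt4h1 and Supt4h2 are Supt4a and Supt4b.

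The cells were primary mouse embryonic fibroblasts (MEFs), cells grown out of mouse embryos, kept in DMEM with serum. The 3 groups were untreated MEFs (0 h), MEFs after 2 h and MEFs after 4 h in 1 mM hydrogen peroxide (H2O2), an oxidant, with 2 arrays each from independent experiments. No strain, genotype or embryo age is given in the labels, and no untreated cells were collected at 2 h or 4 h, so H2O2 and time in culture cannot be told apart. The labels do not say what made the experiments independent, so p-values measure only the spread between these arrays.

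RNA polymerase II pauses shortly after it starts. The kinase Cdk9 with a cyclin T, together called P-TEFb, releases it, and the 7SK particle holds P-TEFb inactive through Hexim1, while the super elongation complex brings it to genes on the scaffolds Aff1 and Aff4. Integrator cuts short transcripts loose near promoters and trims small nuclear RNAs. At the far end of a gene the CPSF, CstF and cleavage factor complexes cut the transcript, a poly(A) polymerase adds the tail, and Xrn2 digests what the polymerase still makes, which ends transcription. Pausing and early termination are known to be regulated when cells meet stress. In bulk RNA, fewer cells that express a gene and less of its RNA per cell cannot be told apart.

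The arrays were of similar quality. The 75th percentile of the signal, which set the scale of each array, ran from 674 to 883, and between 57.3% and 68.0% of spots were well above background. Replicate arrays correlated across genes at 0.992 to 0.994. All replicate 1 arrays shared a slide, as did all replicate 2 arrays, and each time had the same place on both slides, so place and time cannot be told apart. All 10 fibroblast markers on the list were above background on every array, and their summed signal was 1448 to 1477 times the 75th percentile at 2 h and 1366 to 1477 times at 4 h, against 1147 to 1225 times in untreated MEFs. By single marker, 5 of the 10 were higher and 1 lower at each time. Of 8 endothelial markers, 4 rose at 2 h and 3 at 4 h, with a summed signal of 0.988 to 1.10 times at 2 h and 0.959 to 0.981 times at 4 h, against 0.473 to 0.540 times in untreated MEFs. Cdh5 and Tie1, also among these 8, were above background on no array. Of 5 epithelial and 6 haematopoietic markers, 3 each rose at both times. Of 4 skeletal muscle markers 1 was higher at each time, and of 3 neural markers 1 was lower at each time. The part of these cells in the changes below was not tested.

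The members moved in both directions. At 2 h, 13 of 44 were higher (29.5%) and 8 lower (18.2%), against 23.7% and 15.3% of all genes tested, by limma with a Benjamini-Hochberg adjusted p under 0.05. At 4 h, 14 were higher (31.8%) and 8 lower (18.2%), against 24.6% and 18.4% of all genes. Between the times, 11 were higher (25.0%) and 5 lower (11.4%) at 4 h than at 2 h, against 13.4% and 16.4% of all genes. The count of higher members at 2 h and 4 h includes Ell3, which entered the test because its treated arrays were high. The median log2 change was 0.11 at 2 h and 0.10 at 4 h, against 0.12 and 0.07 over all genes, and it was 0.03 against -0.08 for 4 h over 2 h. Shares and medians lay near those of the array at 2 h and 4 h, while between the times the share of higher members was above that of all genes. That excess was not tested.

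How many members counted as higher depended on how arrays were scaled, since the overall signal was lower on treated arrays. Without scaling, the median change of all genes was -0.22 at 2 h and -0.19 at 4 h, and the split of members was 3 higher and 17 lower at 2 h and 11 and 13 at 4 h. Over all genes 8.89% were then higher and 33.1% lower at 2 h, and 10.2% and 31.7% at 4 h. Scaled on 7 spike-in probes, the all-gene medians were -0.33 and -0.20, and the splits were 3 and 27 at 2 h, 12 and 15 at 4 h, and 17 and 2 for 4 h over 2 h. Over all genes 8.51% were then higher and 53.4% lower at 2 h, 11.5% and 35.9% at 4 h, and 22.2% and 7.44% between the times. Centred on array medians, they were 6 and 12 at 2 h, 11 and 11 at 4 h, and 12 and 3 between the times, against 10.7% and 22.2%, 13.2% and 23.8%, and 13.0% and 10.2% of all genes. At 2 h and 4 h the members' median stayed close to that of all genes in these 3 settings. Without scaling and on spike-ins it was -0.23 and -0.34 at 2 h, and -0.16 under both at 4 h. Between the times it lay above that of all genes in these 3 settings. It was 0.11 without scaling, 0.22 on spike-ins and 0.070 with median centring, against 0.0019, 0.11 and -0.034. With normexp background correction the members' median lay below that of all genes in each comparison. It was 0.087 at 2 h, 0.037 at 4 h and -0.0032 for 4 h over 2 h, against 0.13, 0.18 and 0.042. With the slide as a block, 19 members were higher and 10 lower at 2 h, 19 and 10 at 4 h, and 14 and 8 between the times, against 33.4% and 19.1%, 30.9% and 22.8%, and 16.6% and 23.2% of all genes. The block ended no call and added 21. At 2 h it added as higher Cpsf3l (adjusted p = 0.0110), Supt16h (0.0179), Cstf2 (0.0248), Papola (0.0343), Cpsf2 (0.0352) and Xrn2 (0.0484), and as lower Cstf1 (0.0142) and Ints7 (0.0247). At 4 h it added as higher Aff1 (0.0223), Cstf1 (0.0236), Supt16h (0.0273), Ccnt2 (0.0370) and Xrn2 (0.0450), and as lower Ints5 (0.0168) and Cpsf1 (0.0413). Between the times it added as higher Cstf1 (0.00711), Pcf11 (0.0353) and Ints6 (0.0387), and as lower Cpsf3l (0.0178), Supt5h (0.0326) and Cpsf3 (0.0483). Below, a member is said to pass or not by the fit without the block. Within slide 1 the members' median change was 0.16 at 2 h and 0.09 at 4 h, and within slide 2 it was 0.09 and 0.08. Of the calls, 7 of 21 at 2 h, 10 of 22 at 4 h and 5 of 16 between the times held under all 5 other scalings and background corrections, and 17, 20 and 16 kept their sign under all of them. The sign turned at 2 h for Cpsf6, Ell, Nudt21 and Supt3h on spike-ins (Nudt21 also without scaling), and at 4 h for Ell2 and Nudt21 on spike-ins and without scaling.

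The heat map of all members shows a pair of features, a set of falls at 2 h that had eased by 4 h and a set of rises that lasted.

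**Figure D1:**
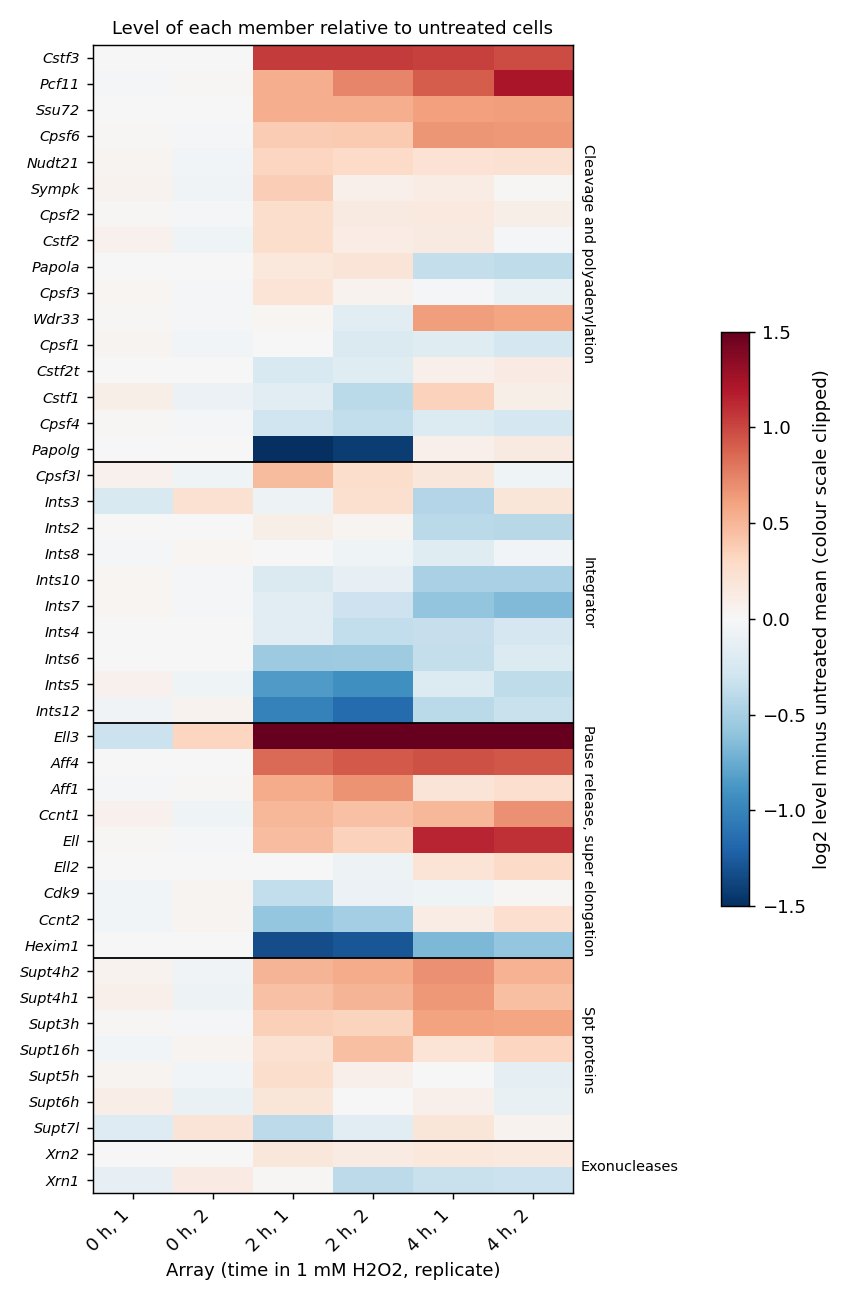
Level of the 44 tested members on each of the 6 arrays, as log2 signal minus the mean of the 2 untreated arrays, with rows by role and sorted by the 2 h change. Red is above and blue below the untreated mean, and the colour scale is clipped. Papolg, Hexim1, Ints12 and Ints5 are blue at 2 h and paler at 4 h, while Cstf3, Aff4 and Ssu72 are red on all 4 treated arrays.

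In the pause release group the deepest fall was that of the inhibitor. Hexim1, which holds P-TEFb inactive in the 7SK particle, fell to 0.404-fold of untreated at 2 h and to 0.648-fold at 4 h. Its processed signal was 6212 and 6608 in untreated MEFs, 2016 and 2087 at 2 h, and 3171 and 3795 at 4 h. As log2 levels over each array's 75th percentile, the scale used for all levels below, these are 2.91 and 2.90 untreated, 1.58 and 1.62 at 2 h, and 2.23 and 2.33 at 4 h. The 3 groups did not overlap, with the lowest values at 2 h. The log2 change was -1.31 ± 0.06 at 2 h (SE of the fit, 2 arrays per group, adjusted p = 4.23e-04) and -0.63 ± 0.06 at 4 h (adjusted p = 0.00266). The 4 h arrays were 0.68 ± 0.06 above the 2 h arrays (adjusted p = 0.00376). The other Hexim1 probe gave -1.02 at 2 h and -0.71 at 4 h. All 3 calls held under each of 5 other scalings or background corrections and with any array left out.

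Of the P-TEFb subunits, the kinase did not pass the test and its cyclins parted ways. Cdk9 changed by -0.23 ± 0.11 at 2 h and -0.02 ± 0.11 at 4 h. Ccnt2 had log2 levels of 0.94 and 1.01 untreated, 0.40 and 0.47 at 2 h, and 1.09 and 1.23 at 4 h. Its 2 h arrays were below all others, and its 4 h arrays lay above the untreated ones by 0.18 ± 0.08, which did not pass (adjusted p = 0.122, or 0.0370 with the slide as a block). The fall at 2 h was -0.54 ± 0.08 (adjusted p = 0.0077) and 4 h exceeded 2 h by 0.72 ± 0.08. The other Ccnt2 probes also read lower at 2 h (-1.20 and -0.41) but differed at 4 h (-0.27 and 0.91). Ccnt1 had levels of -1.62 and -1.76 untreated, -1.19 and -1.26 at 2 h, and -1.20 and -1.01 at 4 h. All 4 treated arrays lay above both untreated ones, with changes of 0.47 ± 0.09 (adjusted p = 0.0196) and 0.59 ± 0.09 (adjusted p = 0.00966). The Ccnt1 call at 2 h was lost without untreated replicate 2 (adjusted p = 0.0930) or without either 2 h array, and at 4 h without untreated replicate 2.

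Among the scaffolds and factors of the super elongation complex, Aff4, Aff1 and Ell rose at 2 h. Aff4 had levels of -0.56 and -0.55 untreated, 0.30 and 0.36 at 2 h, and 0.39 and 0.38 at 4 h, and its treated arrays were all higher. Its changes of 0.89 ± 0.06 and 0.94 ± 0.06 (adjusted p = 7.87e-04 and 7.79e-04) held under all 5 other scalings and background corrections. The other 3 Aff4 probes gave smaller values, 0.21 to 0.54 at 2 h and -0.06 to 0.46 at 4 h, and with all probes averaged neither call held (0.48 and 0.35, adjusted p = 0.304 and 0.443). Aff1 had levels of 3.01 and 3.06 untreated, 3.59 and 3.71 at 2 h, and 3.23 and 3.29 at 4 h. It stood highest at 2 h, by 0.62 ± 0.07 over untreated (adjusted p = 0.00377), and was 0.39 lower at 4 h than at 2 h (log2 change -0.39, adjusted p = 0.0171). That later drop was lost without 2 h replicate 2 or either 4 h array (adjusted p up to 0.0805). With every probe in the limma fit, a second Aff1 probe above background on all arrays was higher at both times. It gave 0.98 and 0.63 (adjusted p = 0.00451 and 0.0136), and its later drop of -0.34 did not pass (adjusted p = 0.0880). The remaining Aff1 probe, above background on 3 arrays, gave 0.91, 0.04 and -0.87 for the same comparisons, none past the test.

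Ell, an elongation factor that speeds the polymerase, climbed in steps. Its levels were 2.03 and 1.99 untreated, 2.47 and 2.35 at 2 h, and 3.15 and 3.10 at 4 h. The 3 groups did not overlap and followed the order of time. At 4 h the change was 1.12 ± 0.07, or 2.17-fold (adjusted p = 8.38e-04), and the other probe gave 1.10. At 2 h it was 0.40 ± 0.07 (adjusted p = 0.0122), a call lost when either untreated array or 2 h replicate 1 was left out (adjusted p up to 0.0718). Ell2 did not pass at 2 h (-0.04 ± 0.06) and was higher at 4 h by 0.25 ± 0.06 (adjusted p = 0.036), a call lost when any of the 6 arrays was left out (adjusted p up to 0.144).

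Ell3, a relative of Ell with a single probe here, was not well above background on either untreated array, at levels of -6.64 and -6.00. It read -3.76 and -3.49 at 2 h and -3.97 and -4.17 at 4 h, above background on all 4 of those arrays. Against the lowest measurable signal it was at least 4.02-fold higher at 2 h and at least 2.96-fold higher at 4 h. Each bound sets the mean level of the treated arrays over the mean, across the untreated arrays, of the lowest signal well above background. The fit gave adjusted p = 0.00205 and 0.00341, but it used untreated values below background, and the gene entered it only because the treated arrays were high, so these are no test of the bound. With normexp background correction they were 0.153 and 0.0537. In all, 5 of the 9 genes of pause release and the super elongation complex were higher at 2 h and 2 lower, and at 4 h 5 were higher and 1 lower, with Ell3 among the higher ones at both times. The shares over all genes were 23.7% and 15.3% at 2 h, and 24.6% and 18.4% at 4 h. On spike-ins the counts were 2 and 4 at 2 h and 4 and 1 at 4 h, against 8.51% and 53.4%, and 11.5% and 35.9%, of all genes. With all probes averaged they were 3 and 2 at 2 h and 2 and 1 at 4 h, against 20.3% and 12.7%, and 22.2% and 13.8%, of all genes.

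None of the 10 Integrator subunits was called higher at either time, against 23.7% and 24.6% of all genes. Of the 10, 3 were lower at 2 h and 5 at 4 h, against 15.3% and 18.4% of all genes, with medians of -0.20 and -0.29 against 0.12 and 0.07 over all genes. With the slide as a block 1 was higher and 4 lower at 2 h, the higher one being Cpsf3l (adjusted p = 0.0110), and 0 and 6 at 4 h. Under the 5 other scalings and background corrections none was higher, while the number lower followed the scale. It was 2 at each time with normexp, against 4.26% and 4.87% of all genes, and 8 at each time on spike-ins, against 53.4% and 35.9% of all genes. With all probes averaged 1 was lower at each time, against 12.7% and 13.8% of all genes, and the medians were 0.08 and 0.03. That average takes in probes of Ints2, Ints8 and Ints12 that were above background on no array. The subunits fell at different times. Ints12, a small subunit with a PHD finger, had levels of -0.38 and -0.28 untreated, -1.34 and -1.48 at 2 h, and -0.73 and -0.66 at 4 h. Its 3 groups did not overlap, and 4 h lay between the others. It changed by -1.08 ± 0.08 at 2 h (adjusted p = 0.00114) and -0.37 ± 0.08 at 4 h (adjusted p = 0.0216), with 4 h above 2 h by 0.72. The 4 h call was lost without any 1 of the untreated or 4 h arrays (adjusted p up to 0.102). A second Ints12 probe gave only -0.19 and -0.24, and with probes averaged the 2 h change was -0.33 and did not pass.

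Ints5, a subunit of the backbone of the complex with 1 probe, followed the same course. Its levels were 1.29 and 1.17 untreated, 0.37 and 0.31 at 2 h, and 1.02 and 0.84 at 4 h. The 2 h arrays were lowest, with a log2 change of -0.88 ± 0.09 (adjusted p = 0.00286), and the 4 h value of -0.29 ± 0.09 did not pass (adjusted p = 0.0553, or 0.0168 with the slide as a block). The 4 h arrays exceeded those of 2 h by 0.59, a call lost without either 2 h array (adjusted p up to 0.0669). Ints6, which belongs with the phosphatase attached to Integrator, had levels of -0.68 and -0.66 untreated, -1.21 and -1.20 at 2 h, and -1.02 and -0.87 at 4 h. All 4 treated arrays were lower, with log2 changes of -0.54 ± 0.07 at 2 h (adjusted p = 0.00616) and -0.28 ± 0.07 at 4 h (adjusted p = 0.0347). Leaving out an untreated array, a 2 h array or 4 h replicate 1 ended the 4 h call (adjusted p up to 0.136). The other Ints6 probes were above background on 3 arrays each and scattered from -1.27 to 2.78 at 2 h, so that the mean of probes turned to 0.33 at 2 h and 0.83 at 4 h without passing.

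Ints7, Ints10 and Ints2 were instead lower at 4 h, both against untreated cells and against 2 h. Ints7 had levels of 0.94 and 0.88 untreated, 0.75 and 0.60 at 2 h, and 0.32 and 0.25 at 4 h. Its levels stepped down with time without overlap, and the 4 h change was -0.63 ± 0.08 (adjusted p = 0.0047), while that at 2 h (-0.24 ± 0.08) passed only with the slide as a block. The other Ints7 probes above background on all arrays gave -0.48 and -0.33 at 4 h. Ints10 changed by -0.48 ± 0.06 and Ints2 by -0.41 ± 0.05 at 4 h (adjusted p = 0.00528 and 0.00529). Against 2 h, the 4 h change was -0.39 in Ints7, -0.31 in Ints10 and -0.48 in Ints2 on the log2 scale. The first of these was lost with any array but 2 h replicate 2 left out (adjusted p up to 0.100), and the second with any array left out (adjusted p up to 0.110). Ints2's other probes were below background throughout. Cpsf3l, the endonuclease, changed by 0.37 ± 0.12 at 2 h (adjusted p = 0.0741, or 0.0110 with the slide as a block) and 0.05 at 4 h. Ints4 changed by -0.26 and -0.30, Ints3 by 0.09 and -0.13, and Ints8 by -0.04 and -0.11, none past the test. A second Ints8 probe, above background on all arrays, read -0.65 at 2 h and 0.46 at 4 h. With every probe in the limma fit it passed at 2 h (adjusted p = 0.0376) but not at 4 h (adjusted p = 0.0837). It was 1.11 higher at 4 h than at 2 h (adjusted p = 0.0115).

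**Figure D2:**
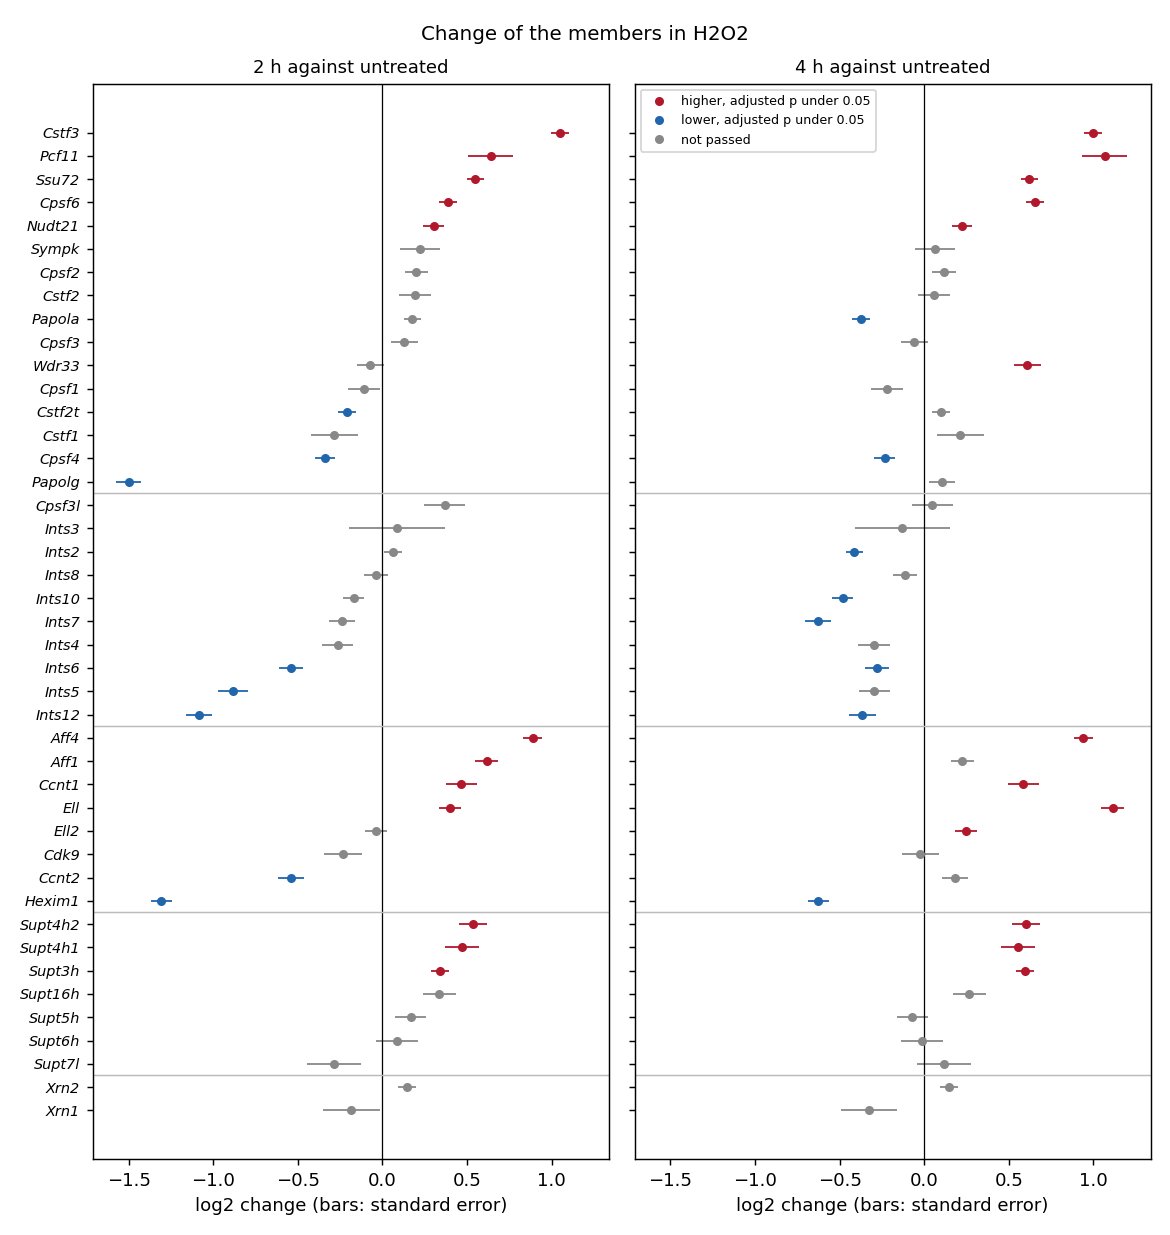
Log2 change of 43 tested members at 2 h (left) and 4 h (right) against untreated MEFs, with the standard error of the limma fit as bars and grey lines between role groups, from cleavage and polyadenylation at the top through Integrator, pause release and Spt proteins to the exonucleases. Ell3 is left out because its untreated level was below background. No Integrator subunit is red, and Papolg and Hexim1 have the lowest values at 2 h.

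Cleavage and polyadenylation factors included the deepest fall among the members at 2 h and several lasting rises. Of 16 tested, 5 were higher and 3 lower at 2 h, and 6 were higher and 2 lower at 4 h. The shares over all genes were 23.7% and 15.3%, and 24.6% and 18.4%. On spike-ins the counts were 1 and 10 at 2 h, and 5 and 4 at 4 h, against 8.51% and 53.4%, and 11.5% and 35.9%, of all genes. With the slide as a block they were 8 and 4, and 7 and 3. Papolg, a nuclear poly(A) polymerase, had levels of -0.55 and -0.53 untreated, -2.12 and -1.96 at 2 h, and -0.46 and -0.41 at 4 h. Its 2 h arrays stood far below the rest, and the 4 h arrays were a little above the untreated ones. The change was -1.50 ± 0.07 at 2 h, or 0.354-fold (adjusted p = 4.66e-04). At 4 h it was 0.11 ± 0.07 against untreated (adjusted p = 0.31) and 1.60 ± 0.07 against 2 h, or 3.04-fold (adjusted p = 0.00163). Its other probe was below background on all arrays. By its brightest probe the main nuclear enzyme, Papola, passed at 2 h only with the slide as a block (0.18 ± 0.05). That probe was lower at 4 h, with a log2 change of -0.37 (adjusted p = 0.00677) and -0.55 against 2 h. With every probe in the limma fit, the other Papola probes were higher at 2 h (0.74 and 0.30, adjusted p = 0.0124 and 0.0278). They were also higher at 4 h (0.62 and 0.30, adjusted p = 0.0175 and 0.0249). The mean of the probes was 0.18 at 4 h and did not pass. No direction at 4 h can therefore be given for the gene as a whole.

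Cstf3, the CstF subunit that bridges to CPSF, had levels of 2.33 and 2.35 untreated, 3.39 and 3.38 at 2 h, and 3.36 and 3.32 at 4 h. All treated arrays were higher, by 1.05 ± 0.05 at 2 h and 1.00 ± 0.05 at 4 h, or 2.07-fold and 2.00-fold (adjusted p = 4.89e-04 and 6.43e-04). A second probe, assigned to another transcript accession, gave 0.09 and -0.06 and passed at neither time. Cstf3 is known to make a short transcript that ends at a polyadenylation site within an intron. Which transcripts the probes detect was not analysed here. Cstf1 changed by -0.28 ± 0.14 and 0.21 ± 0.14, neither past the test without the slide as a block. A second Cstf1 probe, above background on all arrays, passed at 2 h with every probe in the limma fit (-0.48, adjusted p = 0.0138). It read -0.11 at 4 h, which did not pass, and was 0.38 higher at 4 h than at 2 h (adjusted p = 0.0324). Cstf2, which binds the RNA downstream of the cut, changed by 0.19 and 0.06, also not past the test without the block. Cstf2t, its relative, was lower at 2 h by a log2 change of -0.21 ± 0.05 (adjusted p = 0.0399) and 0.31 higher at 4 h than at 2 h (adjusted p = 0.0176). The call at 2 h was lost with any array left out (adjusted p up to 0.177), and the later one without any of the 2 h or 4 h arrays (adjusted p up to 0.0959). Cross-reading between the probes of these related genes was not tested.

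Pcf11, which binds the polymerase tail and helps to end transcription, had levels of -1.90 and -1.87 untreated, -1.33 and -1.15 at 2 h, and -0.98 and -0.65 at 4 h. The groups did not overlap and rose in the order of time. The change was 0.64 ± 0.13 at 2 h (adjusted p = 0.0212) and 1.07 ± 0.13 at 4 h, or 2.09-fold (adjusted p = 0.00487). All 4 Pcf11 probes read higher, from 0.31 to 1.52 at 2 h and from 0.71 to 1.23 at 4 h. The 2 h call was lost when any 1 untreated or 2 h array was left out (adjusted p up to 0.0983), and the 4 h call was not. Ssu72, a phosphatase of the polymerase tail, had levels of 3.07 and 3.07 untreated, 3.62 and 3.62 at 2 h, and 3.69 and 3.69 at 4 h. The replicates were nearly equal and every treated array was higher, by 0.55 ± 0.05 and 0.62 ± 0.05 (adjusted p = 0.00212 and 0.00168), and its second probe gave 0.54 and 0.52.

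Both members that belong to cleavage factor I, known for its part in the choice of the polyadenylation site, were higher. Cpsf6 had levels of 0.56 and 0.52 untreated, 0.92 and 0.94 at 2 h, and 1.20 and 1.20 at 4 h. Its groups rose in the order of time, with changes of 0.39 ± 0.05 and 0.65 ± 0.05 (adjusted p = 0.00669 and 0.00161) and a further 0.27 between the times. The 2 h call was lost without untreated replicate 2 (adjusted p = 0.0508) and the one between the times with any array left out (adjusted p up to 0.110). A further probe above background on all untreated and 2 h arrays read -1.86 at 4 h, which turned the mean of the probes to -0.07 there. Nudt21 changed by 0.30 ± 0.06 and 0.22 ± 0.06 (adjusted p = 0.0188 and 0.0394). Leaving out any untreated or 2 h array ended its call at 2 h (adjusted p up to 0.105), any array ended that at 4 h (adjusted p up to 0.185), and without scaling the changes were -0.03 and -0.04.

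Of the CPSF subunits, Wdr33 and Cpsf4, which recognise the polyadenylation signal, were called. The brightest Wdr33 probe had levels of 1.43 and 1.39 untreated, 1.43 and 1.24 at 2 h, and 2.03 and 2.00 at 4 h. Only its 4 h arrays stood apart, by 0.61 ± 0.08 over untreated and 0.68 over 2 h (adjusted p = 0.00594 and 0.00677). The other Wdr33 probes above background on all arrays gave -1.43 and -1.02 at 4 h, both past the test, and the mean of the probes was -0.72. No direction can therefore be given for the gene as a whole. Cpsf4 was lower at both times, with log2 changes of -0.34 ± 0.06 and -0.23 ± 0.06 (adjusted p = 0.0142 and 0.0352). Leaving out any untreated or 2 h array ended its 2 h call (adjusted p up to 0.0785), and leaving out any array ended its 4 h call (adjusted p up to 0.153). The endonuclease Cpsf3 (0.13 at 2 h, -0.06 at 4 h), Cpsf2 (0.20, 0.12), Cpsf1 (-0.11, -0.22) and the scaffold Sympk (0.22, 0.06) did not pass, though Cpsf2 at 2 h and Cpsf1 at 4 h did with the slide as a block.

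**Figure D3:**
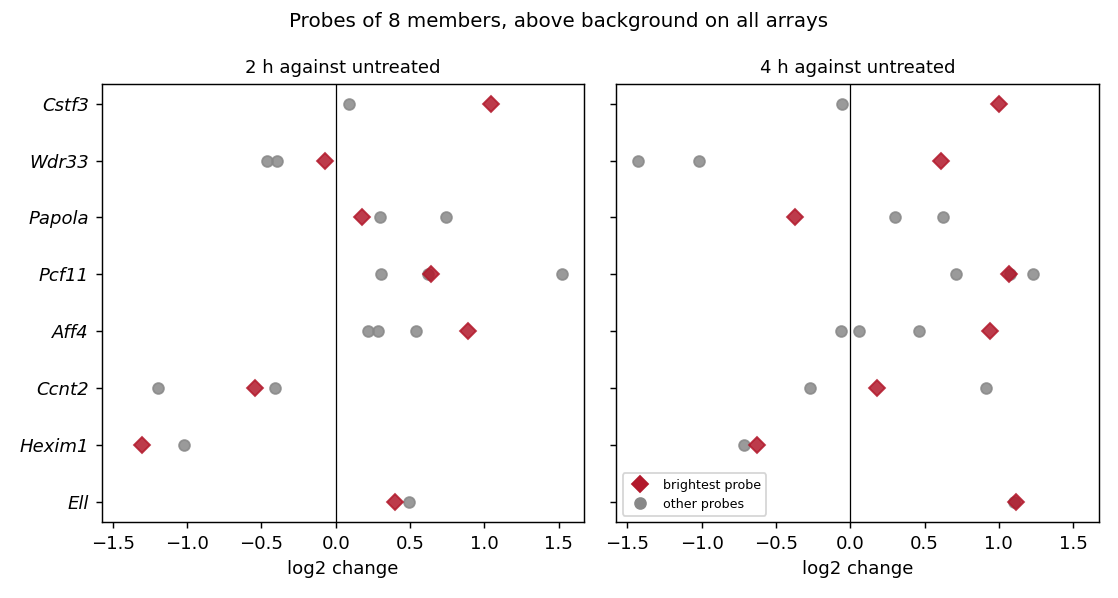
Log2 change at 2 h (left) and 4 h (right) against untreated MEFs for every probe above background on all 6 arrays, for 8 members, with the brightest probe as a red diamond and the others as grey circles. The probes of Hexim1, Ell and Pcf11 lie on 1 side of zero at both times, while those of Wdr33 and Papola lie on both sides at 4 h and those of Cstf3 lie far apart.

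For called members with another probe above background on all arrays, the probes could be compared. At 2 h there were 13 such members of the 21 called, and the other probes had the same sign in all 13. At 4 h they had it in 12 of 16, the exceptions being Aff4, Cstf3, Papola and Wdr33. Between the times they had it in 7 of 11, all but Cpsf6, Ints12, Papola and Wdr33.

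Of the 7 Spt proteins, 3 were higher at both times and none lower, against 23.7% higher and 15.3% lower of all genes at 2 h, and 24.6% and 18.4% at 4 h. On spike-ins none was higher and 3 were lower at 2 h, and 3 were higher and 1 lower at 4 h, against 8.51% and 53.4%, and 11.5% and 35.9%, of all genes. Supt4h1 and Supt4h2 are copies of the Spt4 subunit of DSIF, a factor that takes part in both pausing and elongation. Supt4h1 had levels of 2.41 and 2.24 untreated, 2.76 and 2.83 at 2 h, and 2.97 and 2.78 at 4 h. Supt4h2 had levels of 0.62 and 0.51 untreated, 1.07 and 1.13 at 2 h, and 1.25 and 1.09 at 4 h. In both, every treated array was higher than either untreated one, by 0.47 and 0.55 for Supt4h1 (adjusted p = 0.0226 and 0.0134) and by 0.53 and 0.60 for Supt4h2 (adjusted p = 0.00945 and 0.00617). The copies are near-identical, so a probe of one may read the other, and the values are not independent. Without untreated replicate 2 the calls of Supt4h1 at both times and of Supt4h2 at 2 h were lost. Leaving out either 2 h array (Supt4h1, 2 h), 2 h replicate 2 (Supt4h2, 2 h) or 4 h replicate 1 (Supt4h1, 4 h) also ended them, with adjusted p up to 0.106 for Supt4h1 and 0.0573 for Supt4h2. Their partner in DSIF, Supt5h, changed by 0.17 ± 0.09 and -0.07 ± 0.09 and did not pass.

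Supt3h, part of the SAGA coactivator rather than of elongation complexes, had levels of 0.06 and 0.03 untreated, 0.40 and 0.38 at 2 h, and 0.65 and 0.64 at 4 h. It rose in the order of time without overlap, by 0.34 ± 0.05 and 0.59 ± 0.05 (adjusted p = 0.00935 and 0.00203), with 0.25 between the times. The 2 h call was lost without any of the untreated or 2 h arrays (adjusted p up to 0.0657) and that between the times with any array left out (adjusted p up to 0.125). Supt16h, the large subunit of the histone chaperone FACT, changed by 0.34 ± 0.10 (adjusted p = 0.0532) and 0.27 ± 0.10, which passed at both times with the slide as a block. Supt6h, another histone chaperone, changed by 0.09 and -0.01, and Supt7l of SAGA by -0.28 and 0.12. Neither exonuclease passed without that block. Xrn2, which acts in termination in the nucleus, changed by 0.14 ± 0.05 and 0.15 ± 0.05 (adjusted p = 0.0912 and 0.0821, or 0.0484 and 0.0450 with the block), and Xrn1, which degrades RNA in the cytoplasm, by -0.18 ± 0.17 and -0.33 ± 0.17.

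Put together by time course, 6 members were lower at 2 h and then higher at 4 h than at 2 h: Papolg, Hexim1, Ints12, Ints5, Ccnt2 and Cstf2t. At 4 h, Papolg, Ccnt2 and Cstf2t were at 0.11, 0.18 and 0.10 over untreated without passing, whereas Hexim1 and Ints12 were still lower and Ints5, at -0.29, did not pass. Another 12, with Ell3 subject to the limit given above, were higher at both times: Cstf3, Pcf11, Ssu72, Cpsf6, Nudt21, Aff4, Ccnt1, Ell, Ell3, Supt3h, Supt4h1 and Supt4h2. No member passed in opposite directions at 2 h and 4 h in the fit without the block. With the slide as a block, Cstf1 (adjusted p = 0.0142 and 0.0236) and Ccnt2 were lower at 2 h and higher at 4 h by their brightest probes. Papola, by its brightest probe, was then higher at 2 h and lower at 4 h. At 4 h the second Cstf1 probe read -0.11, the other Ccnt2 probes -0.27 and 0.91, and the other Papola probes 0.62 and 0.30. These comparisons share the untreated arrays or the 2 h arrays. How many of all genes took either course was not counted, so the sizes of these groups are descriptive only.

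**Figure D4:**
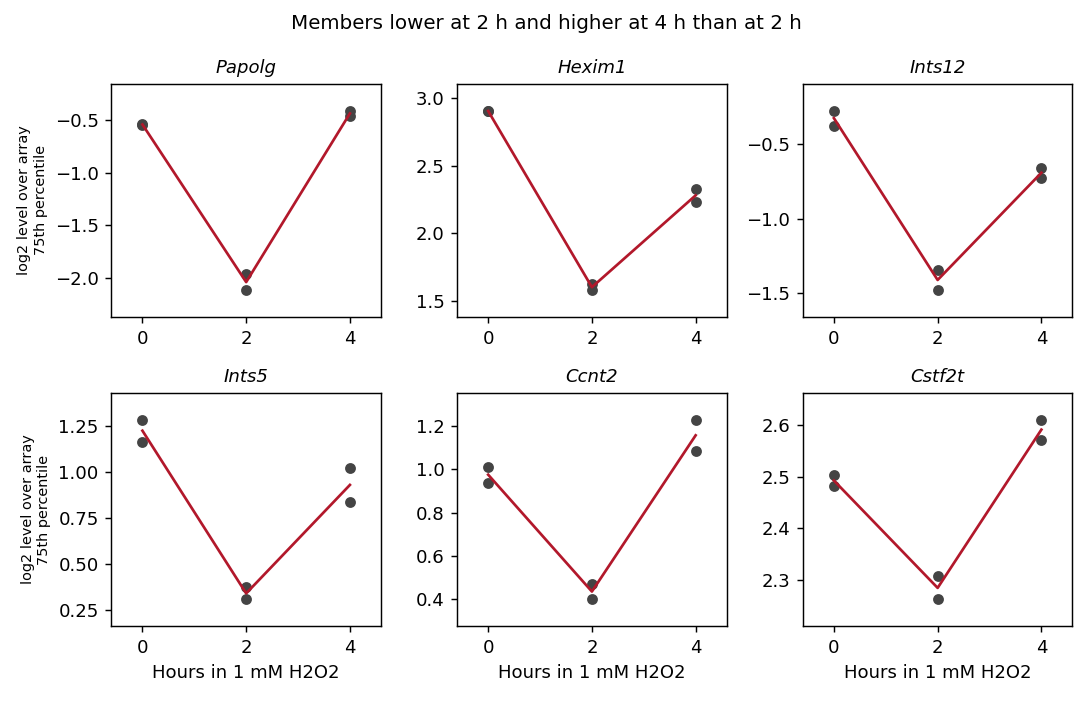
Log2 level over the 75th percentile of the array against hours in 1 mM H2O2 for the 6 members lower at 2 h and higher at 4 h than at 2 h, with 1 point per array and a line through the means of 2 arrays. Each panel has its own scale. The 2 h points lie below all others in each panel, and Hexim1, Ints12 and Ints5 remain under their untreated points at 4 h.

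**Figure D5:**
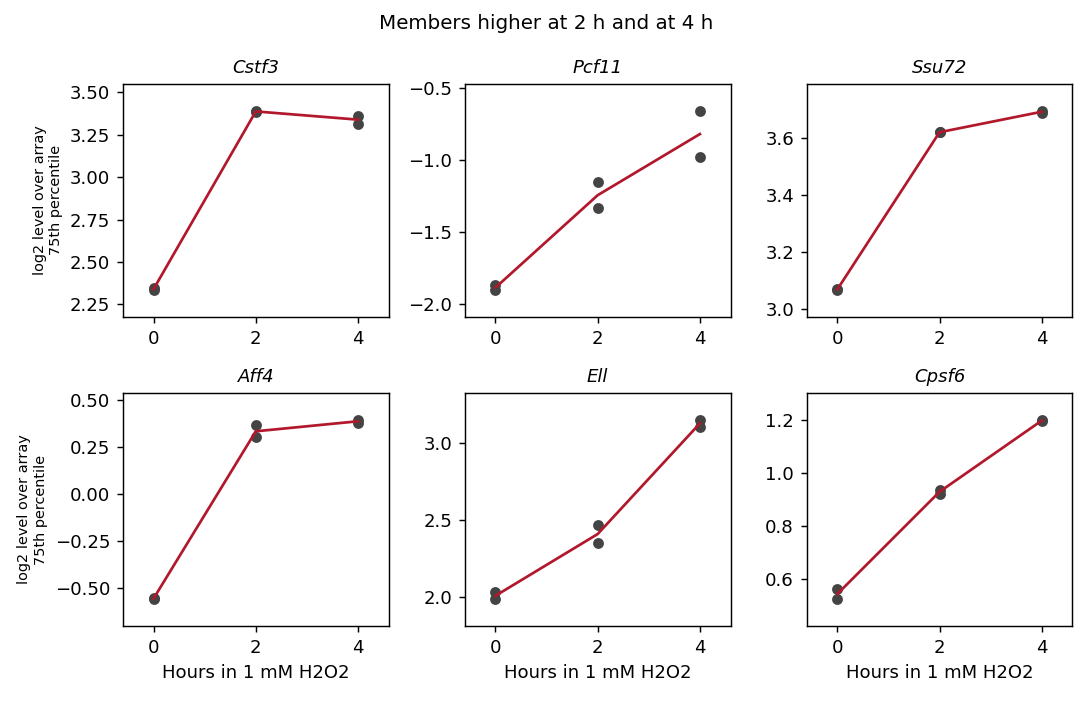
Log2 level over the 75th percentile of the array against hours in 1 mM H2O2 for 6 of the 12 members higher at both times, drawn as points per array with a line through the means. Each panel has its own scale. Cstf3, Ssu72 and Aff4 are near their 4 h level by 2 h, whereas Ell, Pcf11 and Cpsf6 are higher at 4 h than at 2 h on every array.

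To show what lies upstream of genes with these courses, the 250 bases before the start were taken from RefSeq (GRCm38.p6) for 3 genes that were low at 2 h and 2 with large rises at 4 h. Of the 45 members, 39 had an entry. Capitals mark CCAAT and GGGCGG on either strand (ATTGG and CCGCCC on the other). Hexim1 lies at chr11:103116075-103116324 (+), Papolg at chr11:23895271-23895520 (-), Ccnt2 at chr1:127773914-127774163 (+), Pcf11 at chr7:92669913-92670162 (-) and Ell at chr8:70539425-70539674 (+), each read 5′ to 3′ along the gene.
Hexim1: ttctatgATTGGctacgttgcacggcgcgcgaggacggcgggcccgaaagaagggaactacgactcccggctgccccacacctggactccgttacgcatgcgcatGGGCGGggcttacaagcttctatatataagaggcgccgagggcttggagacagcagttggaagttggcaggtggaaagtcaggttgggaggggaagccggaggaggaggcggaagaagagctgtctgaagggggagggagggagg
Papolg: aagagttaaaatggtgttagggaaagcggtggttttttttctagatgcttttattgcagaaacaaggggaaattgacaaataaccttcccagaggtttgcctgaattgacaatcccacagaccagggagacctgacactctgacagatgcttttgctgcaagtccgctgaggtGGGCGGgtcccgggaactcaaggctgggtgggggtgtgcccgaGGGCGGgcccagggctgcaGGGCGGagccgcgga
Ccnt2: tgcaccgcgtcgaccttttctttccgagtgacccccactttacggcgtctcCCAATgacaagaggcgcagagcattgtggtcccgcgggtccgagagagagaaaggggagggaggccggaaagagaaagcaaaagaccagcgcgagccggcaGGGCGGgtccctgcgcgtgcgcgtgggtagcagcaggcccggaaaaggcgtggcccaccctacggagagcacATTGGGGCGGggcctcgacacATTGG
Pcf11: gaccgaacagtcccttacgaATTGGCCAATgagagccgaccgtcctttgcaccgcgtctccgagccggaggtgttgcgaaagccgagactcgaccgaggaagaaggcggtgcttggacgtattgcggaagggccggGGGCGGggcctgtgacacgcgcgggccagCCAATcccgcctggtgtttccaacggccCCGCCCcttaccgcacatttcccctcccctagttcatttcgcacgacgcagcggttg
Ell: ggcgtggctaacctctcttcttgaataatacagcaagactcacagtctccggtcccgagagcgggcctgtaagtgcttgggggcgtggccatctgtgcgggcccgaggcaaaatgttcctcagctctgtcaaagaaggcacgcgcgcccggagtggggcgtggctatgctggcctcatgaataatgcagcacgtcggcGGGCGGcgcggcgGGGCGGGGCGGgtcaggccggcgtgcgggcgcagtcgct

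These upstream stretches were rich in GC, from 54.8% in Papolg to 66.0% in Ell. GGGCGG, the core letters bound by Sp1 family factors, stood in 24 of 39 members and 32.9% of all 27025 promoters, in all 5 promoters known here of the genes that dipped at 2 h and in 8 of 11 of those higher at both times. CCAAT, the letters bound by NF-Y, stood in 17 of 39 members and 34.5% of all promoters, in 3 of the 5 and 5 of the 11. Matches overlap in Ccnt2 (ATTGG with GGGCGG), in Ell (GGGCGG with itself), and the CCAAT matches of Pcf11 adjoin on opposite strands. TATAAA stood in 0 of 39 members and 13.0% of all promoters, and TGANTCA in 0 of 39 and 6.9%. CACGTG stood in 3 members (6.0% of all promoters), TGACGTCA in 2 (1.6%) and GAANNTTC in 1 (6.8%). All motifs were searched on both strands as exact letters, with N for any base. Near forms, such as TATATAAG in Hexim1, were therefore not counted, and a match describes letters only.

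Other genes of the pathway moved in both directions too. Of 34 on the array, 10 were higher and 6 lower at 2 h, 8 higher and 8 lower at 4 h, and 3 higher and 5 lower at 4 h than at 2 h. As shares these were 29.4% and 17.6%, 23.5% and 23.5%, and 8.82% and 14.7%, against 23.7% and 15.3%, 24.6% and 18.4%, and 13.4% and 16.4% of all genes, so the list as a whole lay near the array and the values are given for single genes. Among the ELL-associated factors, Eaf2 changed by 2.78 ± 0.06 at 2 h and 3.26 ± 0.06 at 4 h (adjusted p = 1.01e-04 and 1.03e-04), and Eaf1 by 0.93 and 0.72. Mllt3, a reader of histone marks in the super elongation complex, was lower at both times (-0.30 and -1.42). Larp7, which protects the RNA of the 7SK particle, was higher at 2 h (0.33) and did not pass at 4 h. The Nelfa subunit of the negative elongation factor, named Whsc2 here, was lower at 2 h (-0.70) and higher at 4 h than at 2 h (0.49), as Hexim1 was, and its partner Th1l was lower at 4 h (-0.47). In polyadenylation, Pabpn1, a nuclear poly(A)-binding protein (0.84 and 0.73), and Rbbp6, an activator of cleavage (0.77 and 0.88), were higher at both times. The histone transcript factors Slbp (-0.38 and -0.31) and Lsm10 (-0.44 and -0.51) were lower at both times, and Lsm11 at 2 h (-0.26). Of the PAF1 complex, Wdr61 was higher at both times (0.39 and 0.64), Ctr9 was lower at 4 h (-0.36), and the other 4 subunits did not pass.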

How the data were processed

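The 6 arrays were 1-colour Agilent expression arrays, labelled with Cy3 per the labels. Per the file headers, the authors scanned them and read the spots with Agilent Feature Extraction, version 9.5.3.1, and its protocol GE1-v5_95_Feb07. The deposited files hold intensity per spot on a linear scale, and the deposited table of values matches the processed signal to within 0.0005. Of 45018 spots, 43379 were not controls. Here log2 of the deposited processed intensity was taken, each array's 75th percentile was subtracted, spots with an outlier flag (99 to 149 per array) were left out, and repeated spots of a probe were averaged. The array's own gene names were used, and the brightest probe by its mean over arrays represented each gene. Genes entered the test when some group had both arrays well above background. All 6 arrays were fitted in 1 model with limma 3.58.1 in R 4.3.3 (with the package data.table, version 1.17.8), with 3 residual degrees of freedom and 1.63 from the prior. Adjusted p-values follow Benjamini and Hochberg over all 17341 genes of a comparison, at 0.05. The fit was tested on simulated data. Saturated spots were absent, and precision is limited by having 2 arrays in a group.

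The members and gene lists were chosen with earlier results of these data known. Every member past the test is named, with values per array where its log2 change reached 0.5 at 2 h or 4 h. Same-numbered arrays shared a slide, and their deviations from group means correlated at 0.25, 0.19 and 0.24 for the pairs of groups, so the replicate block and the slide block are the same fit. The alternatives were normexp background correction, quantile, median, no and spike-in scaling, other filters and probe rules, the slide as a block, values within slides, and leaving out each array. Probe coordinates have no stated build and are not used here. No promoter was read for Cpsf1, Ints5, Ints8, Ints10, Supt4h2 and Wdr33.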

Additional observations from a re-analysis of the deposited data

Results flagged for a closer look

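The change at 4 h was set against that at 2 h in the same limma fit of all 6 arrays, by testing 4 h against 2 h. For 16 members the changes at the 2 times differed at an adjusted p under 0.05. The log2 differences, 4 h minus 2 h, were 1.60 for Papolg, 0.72 for Ccnt2, 0.72 for Ints12, 0.72 for Ell, 0.68 for Hexim1, 0.68 for Wdr33, 0.59 for Ints5, 0.31 for Cstf2t, 0.29 for Ell2, 0.27 for Cpsf6 and 0.25 for Supt3h. They were -0.55 for Papola, -0.48 for Ints2, -0.39 for Aff1, -0.39 for Ints7 and -0.31 for Ints10. Of the 11 positive ones, 6 belong to members that were lower at 2 h. For Cpsf6, Ints12, Papola and Wdr33 another probe above background on all arrays had the opposite sign. With any 1 array left out, 8 of the 16 calls held throughout.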

How the results depend on the processing

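With 2 arrays per group, counts of calls moved with most choices while most directions did not. The replicate block, which is also the slide block, gave 8 members lower at 4 h than at 2 h in place of 5, ended no call and added 21. Within each slide every called change kept its sign, while among changes not called 4 at 2 h, 2 at 4 h and 7 between the times had the other sign on 1 of the slides. With normexp the counts of higher and lower members were 3 and 5 at 2 h, 7 and 3 at 4 h, and 4 and 1 for 4 h over 2 h. Calls were fewer over all genes too, at 4.69% and 4.26%, 8.68% and 4.87%, and 4.49% and 1.4%. The members' median changes were 0.037 at 4 h and -0.0032 for 4 h over 2 h, below the 0.18 and 0.042 over all genes. Quantile normalization moved the medians to -0.0072, 0.026 and 0.057 for the 3 comparisons in that order. Median centring gave 6 higher at 2 h and 3 lower between the times, with medians of -0.089, -0.054 and 0.070. Without scaling there were 3 higher and 17 lower at 2 h, 13 lower at 4 h and 2 lower between the times, with medians of -0.23, -0.16 and 0.11. The log2 changes that turned were those of Nudt21 (-0.035 at 2 h, -0.036 at 4 h) and Ell2 (-0.014 at 4 h). With spike-in scaling there were 3 higher and 27 lower at 2 h, 15 lower at 4 h, and 17 higher and 2 lower between the times, with medians of -0.34, -0.16 and 0.22. It turned 12 changes at 2 h: Cpsf2 -0.25, Cpsf3 -0.32, Cpsf6 -0.066, Cstf2 -0.26, Ell -0.053, Ints2 -0.39, Nudt21 -0.15, Papola -0.27, Supt3h -0.11, Supt5h -0.29, Supt6h -0.36 and Xrn2 -0.31. At 4 h it turned Ell2 (-0.016) and Nudt21 (-0.038). These turns follow the scale, which moved all genes. With no filter on dim probes, and so 27962 genes tested, 7 were higher at 2 h, 5 lower at 4 h, and 7 higher and 2 lower between the times. Over all genes these counts were 2338, 1911, 1421 and 1086. The members' median between the times was 0.053 without the filter and with only genes above background on all arrays. With the mean of all probes, above background or not, 4 were lower at 2 h, 3 at 4 h and 2 between the times. The shares over all genes were 12.7%, 13.8% and 11.5%. The changes that turned were Ints6 (0.33 at 2 h, 0.83 at 4 h), Cpsf6 (-0.068 at 4 h, -0.43 between the times), Wdr33 (-0.72 and -0.38), Ints12 (0.10), Ints2 (0.062) and Papola (0.18, these 3 at 4 h). With every probe as its own feature, and so 25886 features tested, no call of a brightest probe changed. That setting reads the same probe for each member, so it is no check on the other probes. With 1 array left out, no comparison had more calls among the members, and every comparison had fewer over all genes. The members' median changes were then 0.062 to 0.16 at 2 h, 0.087 to 0.12 at 4 h and 0.0070 to 0.054 between the times. Within slide 1 the medians were 0.16, 0.094 and -0.010, and within slide 2 at 4 h 0.084. Except where said, the cause of a lost call was not tested. Calls that held under all 5 scalings and corrections and with any array left out were those of Papolg, Hexim1, Ints12, Ints5, Ccnt2, Cstf3 and Aff4 at 2 h, and of Aff4, Cpsf6, Cstf3, Ell, Hexim1, Ints2, Ints7, Pcf11, Ssu72 and Supt3h at 4 h. Of these, averaging all probes of a gene, above background or not, ended the calls of Ints12 and Aff4 at 2 h and of Aff4, Cpsf6 and Ints2 at 4 h.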
